A study of Mus musculus with 28 samples.

Results

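The respiratory chain and ATP synthase of the inner mitochondrial membrane are described here through their nuclear genes in mouse splenic dendritic cells. A gene was a member when its symbol began with Nduf followed by a, b, c, s or v, was Sdha, Sdhb, Sdhc or Sdhd, began with Uqcr or Atp5, named a Cox subunit of the number 4 to 8 followed by the letters a to c, or was Cyc1 or Cycs. The rule uses gene symbols only. It gave 89 genes among 19938 genes that the array platform names with 1 symbol, and 85 of them had a level above 5 on at least 3 of the 28 arrays and were tested. Of the 89 genes, 34 encode subunits of complex I, 4 of complex II, 9 of complex III, 15 of complex IV and 17 of complex V. Cycs is cytochrome c, and the 9 other members are assembly factors and related proteins that share the name pattern.

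The respiratory chain moves electrons from NADH and succinate to oxygen. Complex I takes them from NADH and complex II from succinate, ubiquinone carries them to complex III, and cytochrome c carries them on to complex IV, which reduces oxygen to water. Complexes I, III and IV pump protons across the inner membrane, and complex V, the ATP synthase, lets them flow back and makes ATP. Complexes I, III, IV and V include subunits that are encoded in mitochondrial DNA, while complex II is wholly nuclear-encoded. Dendritic cells are antigen-presenting cells, and the balance of respiration and glycolysis in them is known to shift when they are activated.

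Total RNA of splenic dendritic cells from C57BL6/J mice of 3 months of age was hybridised to 28 arrays in 6 groups. Wild-type samples received vehicle (7 arrays), angiotensin II (Ang II; 4 arrays), Ang II with 2-HOBA (4 arrays) or Ang II with Hyd/HCTZ (6 arrays). Samples that lack GP91 Phox, the catalytic subunit of the superoxide-generating NADPH oxidase NOX2, received vehicle (3 arrays) or Ang II (4 arrays). Ang II is the vasoconstrictor peptide that is infused to raise blood pressure in mice, and 2-HOBA (2-hydroxybenzylamine) is a scavenger of reactive lipid aldehydes. Hyd/HCTZ combines hydralazine, a vasodilator, with the diuretic hydrochlorothiazide. All groups but the vehicle groups received Ang II, and the 2-HOBA and Hyd/HCTZ groups exist in wild type alone, so that neither has an arm without Ang II. The study set out to ask how oxidative stress bears on the expression profile of dendritic cells. Its design text has isolated cells treated while its title speaks of hypertension, so whether mice or cells were treated is not settled, and some knockout titles name Ang I where the descriptions name Ang II. The sources used here do not give the dose, the duration or the sort of the cells. The labels call the replicates biological, and p-values measure the spread between these samples.

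Levels are the deposited log2 values, on which a difference of 1 is a 2-fold difference, and a level of one gene cannot be set against that of another. The arrays were divided into 3 sets by the probe sets that carry control identifiers, whose first principal component held 30.2% of their variance. Cuts were made at the 3 widest gaps along it and a lone array joined its neighbour, so the number of sets follows from this rule. Set 1 held replicates 1 to 3 of wild-type vehicle, replicates 1 and 2 of wild-type Ang II and all 7 arrays of the knockout. Set 2 held the other vehicle and Ang II arrays of the wild type and the 4 2-HOBA arrays, and set 3 held only the 6 Hyd/HCTZ arrays, so that set and treatment cannot be told apart there. The array labelled wild-type vehicle replicate 2 stood apart, with a mean correlation of 0.852 with the other arrays. On the first principal component it was at -25.95, where the other arrays of set 1 were at -14.39 to -7.48. It was placed in set 1 as the nearest set. Its level of Cybb, the gene of GP91 Phox, was 6.34, while the 7 knockout arrays lay between 6.41 and 7.18 and the wild-type vehicle median was 9.24. The dendritic cell genes Itgax, Flt3, Zbtb46, Cd74 and H2-Ab1 were above 5 in every group mean. They are 5 of the 13 dendritic cell markers read below, of which Clec10a averaged 3.19 with Ang II alone. B cell markers also averaged above 5 in every group, at 6.42 to 8.80, so these levels do not show how pure the cells were.

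Most members were measured. All 34 members of complex I, all 4 of complex II, all 9 of complex III and all 17 of complex V passed the level of 5 on 3 arrays. Complex IV was the exception, with 12 of 15 members. Cox7b2 reached at most 3.84, Cox8b 3.82 and Cox8c 4.90 on any array, and these are isoforms known from testis, heart and muscle. Ndufa4l2, a paralogue of Ndufa4, was above 5 on 1 array, at 5.09. A total of 72 members were above 5 on all 28 arrays and 13 on fewer. Ndufaf6 passed through 3 Hyd/HCTZ arrays alone, and Cox7a1 through 2 knockout vehicle arrays and 1 wild-type vehicle array. Ndufb3, an accessory subunit of complex I, was above 5 on 13 arrays, among them all 6 Hyd/HCTZ arrays and none of the 7 knockout arrays.

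**Figure D1:**
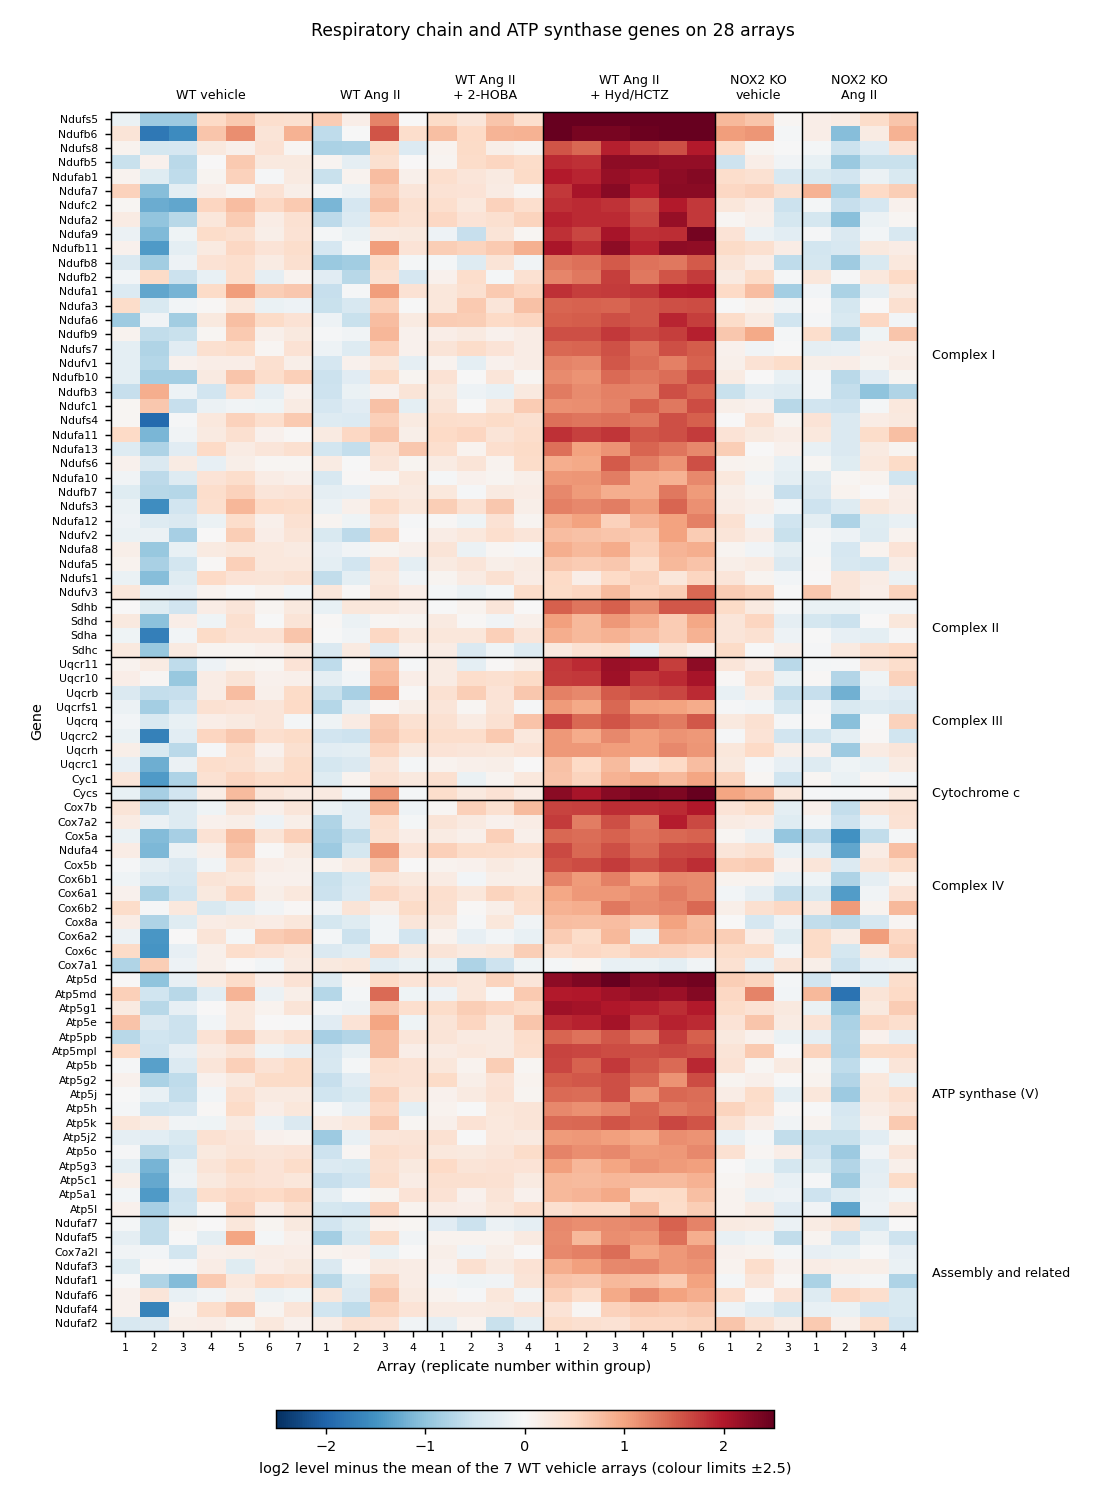
Log2 level of each of the 85 measured genes (lines, grouped by complex and ordered by their difference with Hyd/HCTZ) on each of the 28 arrays (columns, by group), minus the mean of the 7 wild-type vehicle arrays for that gene. The colour scale ends at 2.5 above and below that mean, and the 6 Hyd/HCTZ arrays stand out as higher in every complex.

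The complexes had their highest average in the Hyd/HCTZ group, and the other 5 groups lay close together. The average over the 85 members was 7.31 ± 0.39 in wild-type vehicle (SD, n = 7), 7.34 ± 0.37 with Ang II (n = 4), 7.55 ± 0.05 with Ang II and 2-HOBA (n = 4) and 8.63 ± 0.08 with Ang II and Hyd/HCTZ (n = 6). In the knockout it was 7.42 ± 0.23 with vehicle (n = 3) and 7.22 ± 0.26 with Ang II (n = 4). No Hyd/HCTZ array was below 8.53 and no other array above 7.81. Between neighbours in the order of the other 5 groups, the differences were smaller than the SD within at least one of the groups compared. The average over all 10452 tested genes also was highest with Hyd/HCTZ, at 6.45 ± 0.07 against 6.06 to 6.14 in the other groups.

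The spread within the vehicle and Ang II groups of the wild type followed the array sets. The average over the members was 6.95 on the 3 vehicle arrays of set 1 and 7.58 on the 4 of set 2, and 7.05 and 7.63 on the Ang II arrays of the respective sets. The average over all tested genes was 5.91 on the vehicle arrays of set 1 and 6.25 on those of set 2, and 6.03 and 6.16 on the Ang II arrays. The array labelled wild-type vehicle replicate 2 was the lowest of the set 1 vehicle arrays in both averages. It had 6.63 for the members, where the others had 7.30 and 6.92, and 5.63 for all genes, where they had 6.07 and 6.02.

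Each complex was highest with Hyd/HCTZ when taken alone. Complex I averaged 6.88 ± 0.38 with Ang II and 8.34 ± 0.10 with Hyd/HCTZ added, while wild-type vehicle had 6.85 ± 0.43 and 2-HOBA 7.13 ± 0.05. Complex II averaged 7.10 ± 0.13 with Ang II and 7.89 ± 0.11 with Hyd/HCTZ, the smallest step of the 5 complexes. Complex III went from 7.31 ± 0.44 to 8.56 ± 0.11 in the same comparison. Complex IV had 7.93 ± 0.33 and 9.06 ± 0.10, and complex V 8.63 ± 0.43 and 9.998 ± 0.05. The assembly factors and related proteins had 5.84 ± 0.29 with Ang II and 6.74 ± 0.10 with Hyd/HCTZ. The arrays of these 2 groups did not overlap in any of these averages.

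**Figure D2:**
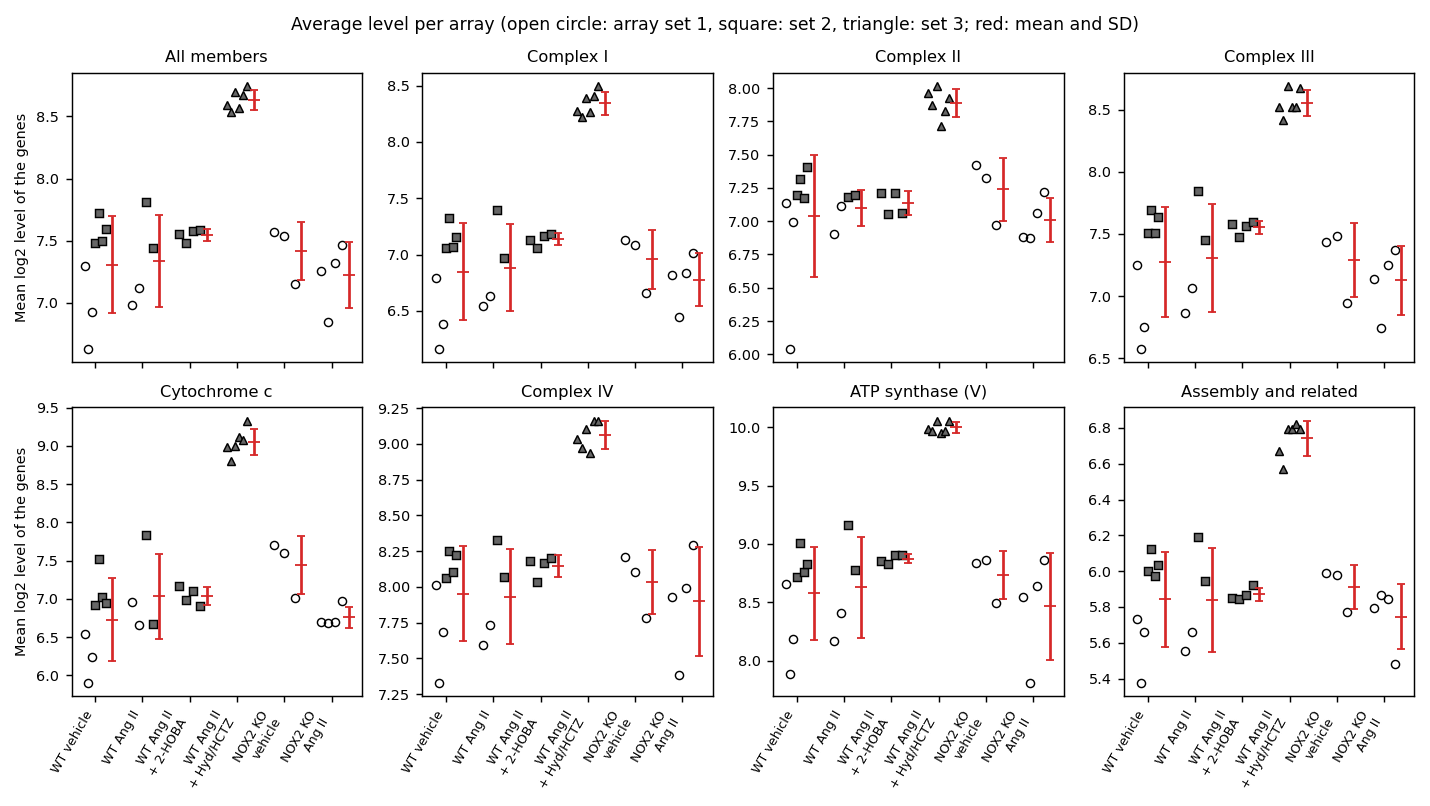
Mean log2 level of the genes of each complex, and of all 85 members, on every array by group. Open circles, squares and triangles are arrays of sets 1, 2 and 3, the red line and bar are the group mean and SD, and the Hyd/HCTZ arrays lie above all others in the average over all members (8.53 to 8.74 against at most 7.81).

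Promoters were read for 74 of the 89 members from RefSeq on GRCm38.p6, each 250 bases before to 50 bases after an annotated start, in all 79 windows. They were searched on both strands for motifs of factors that are known to act at genes of the respiratory chain: NRF1 (CGCNTGCGC), the ETS family to which GABP belongs (CCGGAAG), YY1 (AAGATGGCG), the CCAAT box (CCAAT) and the ERR receptors (TCAAGGTCA). Overlapping matches of one motif were counted once. The NRF1 letters were in 23 windows, which is 29.1%, against 6.25% of all 32851 promoters of the table. The ETS letters were in 22.8% of the members' windows and 8.86% of all, the YY1 letters in 8.86% and 1.40%, CCAAT in 43.0% and 37.4%, and the ERR letters in 2.53% and 0.423%. A match is a description of the sequence, not a site or a cause. The 250 bases before the start of one gene from each of 4 complexes follow, all on the minus strand and written 5′ to 3′, to show how differently these motifs are arranged in members of one pathway. Capitals mark NRF1 and ETS matches. Ndufs5 lies at chr4:123718187-123718436, Sdha at chr13:74350241-74350490, Uqcr11 at chr10:80406822-80407071 and Cox6a1 at chr5:115348959-115349208.
Ndufs5: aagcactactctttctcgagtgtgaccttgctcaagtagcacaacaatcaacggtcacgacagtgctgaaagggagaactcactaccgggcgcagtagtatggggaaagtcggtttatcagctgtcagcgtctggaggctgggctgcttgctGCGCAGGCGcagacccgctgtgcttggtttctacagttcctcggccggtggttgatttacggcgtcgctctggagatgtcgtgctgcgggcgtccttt
Sdha: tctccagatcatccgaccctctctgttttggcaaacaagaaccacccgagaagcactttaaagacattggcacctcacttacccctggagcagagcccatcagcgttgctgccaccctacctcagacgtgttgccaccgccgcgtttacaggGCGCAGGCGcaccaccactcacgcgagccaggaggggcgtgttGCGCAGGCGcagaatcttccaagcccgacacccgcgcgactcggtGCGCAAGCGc
Uqcr11: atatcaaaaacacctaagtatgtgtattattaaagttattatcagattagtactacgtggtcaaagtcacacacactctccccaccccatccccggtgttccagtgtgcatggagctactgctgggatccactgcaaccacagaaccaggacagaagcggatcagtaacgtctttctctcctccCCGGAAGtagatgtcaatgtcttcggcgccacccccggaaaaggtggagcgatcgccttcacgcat
Cox6a1: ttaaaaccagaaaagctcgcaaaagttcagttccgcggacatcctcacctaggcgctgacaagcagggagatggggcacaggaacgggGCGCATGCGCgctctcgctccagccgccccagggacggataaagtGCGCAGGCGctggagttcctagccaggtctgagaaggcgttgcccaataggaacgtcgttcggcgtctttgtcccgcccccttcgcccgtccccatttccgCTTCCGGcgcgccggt

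The printed bases of Ndufs5 held 1 NRF1 match, whose first base is 98 bases before the start. Those of Sdha held 3, at 98, 55 and 10 bases before the start, and those of Uqcr11 held 1 ETS match at 66 bases, while the NRF1 match of its window ends after the start and is not among the printed bases. Those of Cox6a1 combined NRF1 matches at 162 and 117 bases with an ETS match at 16 bases. By complex, NRF1 letters were found for 7 of 31 members of complex I, 2 of 3 of complex II, 2 of 5 of complex III, 1 of 12 of complex IV and 7 of 15 of complex V.

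Adding Hyd/HCTZ to Ang II went with higher levels of most members. All tested genes together were higher on the Hyd/HCTZ arrays, with a median difference of 0.32, so each gene was tested against that shift, and differences below are given relative to it unless said otherwise. With limma and Benjamini-Hochberg adjustment over all 10452 tested genes at 0.05, 69 of the 85 tested members rose, 0 fell and 16 did not pass. Of all tested genes 23.7% rose and 25% fell. The members' median difference was 0.98, and the range was -0.46 to 1.92. As deposited, 76 of the 85 had all 6 Hyd/HCTZ arrays above all 4 Ang II arrays, against 34.4% of all tested genes. All 18 members with several probe sets had the same sign on each of them.

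Complex I moved most widely, with 32 of 34 members up at a median of 1.11. Of the members that belong to its catalytic core, 5 of 6 rose (median 0.91), and of its accessory subunits 27 of 28 rose (median 1.21). Ndufs5, an accessory subunit whose promoter is printed above, had levels of 7.25, 6.79, 7.85 and 6.63 on the 4 Ang II arrays, and 9.15, 9.25 and 9.77 as the lowest, median and highest of the 6 Hyd/HCTZ arrays. The lowest Hyd/HCTZ array was above the highest Ang II array, and wild-type vehicle, between 5.70 and 7.27, lay with the latter. Its difference was 1.92 (SE 0.27, limma adjusted p = 2.7e-06), a 3.78-fold change relative to the shift.

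Ndufb6, another accessory subunit of the membrane arm, had 5.24, 5.85, 7.45 and 6.31 with Ang II and 8.23, 8.37 and 8.62 with Hyd/HCTZ. Ang II replicate 3 was the highest of its group here and in many other members. The difference of Ndufb6 was 1.87 (SE 0.46, limma adjusted p = 0.0014). Ndufs8, a core subunit that holds iron-sulfur clusters, was at 5.61, 5.64, 6.89 and 6.06 with Ang II and at 7.85, 8.07 and 8.40 with Hyd/HCTZ, a rise of 1.75 (SE 0.22). Ndufab1, the mitochondrial acyl carrier protein, rose by 1.69, and Ndufv1, the core subunit that binds NADH and FMN, by 1.10. Ndufb7, the complex I member with the highest mean over all arrays, rose by 0.75 (SE 0.22, limma adjusted p = 0.0060). Ndufb3 rose by at least 0.95, since its mean with Ang II was below the level of 5.

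The complex I members that did not pass were Ndufv3 and Ndufs1. Ndufv3, an accessory subunit of the NADH-oxidising module, had 6.996, 6.74, 7.01 and 6.87 with Ang II and 7.19, 7.28 and 8.13 with Hyd/HCTZ. The groups did not overlap, but relative to the shift the difference was 0.21 (SE 0.18, limma adjusted p = 0.33). Ndufs1, the largest core subunit, was at 5.04, 5.41, 5.91 and 5.57 with Ang II and at 5.82, 6.16 and 6.24 with Hyd/HCTZ, a difference of 0.28 (SE 0.22, limma adjusted p = 0.29) with groups that overlapped.

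In complex II, the succinate dehydrogenase of the citric acid cycle, 2 of 4 members rose. Sdhb, the iron-sulfur subunit, was at 6.17, 6.63, 6.61 and 6.55 with Ang II and at 7.54, 7.85 and 7.91 with Hyd/HCTZ, a clear gap. The difference was 0.98 (SE 0.15, limma adjusted p = 1.1e-05). Sdhd, a membrane anchor, rose by 0.59 (SE 0.21, limma adjusted p = 0.021). Sdhc, the other anchor, was at 7.64, 8.24, 7.73 and 8.12 with Ang II and at 7.84, 8.30 and 8.44 with Hyd/HCTZ. These ranges overlapped, and the difference was -0.01 (SE 0.20). Sdha, the flavoprotein that oxidises succinate and whose promoter held 3 NRF1 matches, had a difference of 0.33 (SE 0.27, limma adjusted p = 0.33).

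In complex III 6 of 9 members rose, with a median of 0.90. Uqcr11, a small membrane subunit, was at 6.21, 6.87, 7.58 and 6.80 with Ang II and at 8.56, 8.82 and 9.08 with Hyd/HCTZ. No array overlapped, and the rise was 1.63 (SE 0.22, limma adjusted p = 1.2e-06). Uqcr10, also a small membrane subunit, went from 7.83, 8.01, 8.89 and 8.24 to 9.82, 9.88 and 10.18, a rise of 1.39 (SE 0.23). Uqcrh, the hinge protein, had the highest mean of the complex; its arrays were at 9.48, 9.48, 10.27 and 9.98 with Ang II and 10.77, 10.81 and 10.93 with Hyd/HCTZ. It rose by 0.70 (SE 0.21, limma adjusted p = 0.0077). The Rieske iron-sulfur protein Uqcrfs1 rose by 0.94.

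The 3 complex III members that did not pass were the 2 core proteins and cytochrome c1. Cyc1, which encodes cytochrome c1, was at 6.03, 6.43, 6.71 and 6.57 with Ang II and at 6.89, 7.17 and 7.31 with Hyd/HCTZ. Uqcrc1 was at 6.32, 6.40, 7.06 and 6.70 and then at 7.09, 7.37 and 7.54. In both, every Hyd/HCTZ array was above every Ang II array, yet relative to the shift the differences were 0.39 (SE 0.28) and 0.42 (SE 0.23), with limma adjusted p = 0.24 and 0.13. Uqcrc2 had 0.72 with an adjusted p of 0.053.

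Cytochrome c, the mobile carrier between complexes III and IV, was among the members with the clearest difference. Cycs was at 6.96, 6.66, 7.84 and 6.67 with Ang II and at 8.80, 9.04 and 9.33 with Hyd/HCTZ. All Hyd/HCTZ arrays were above every other array of the study, of which the next, with Ang II, had 7.84. The rise was 1.70 (SE 0.24, limma adjusted p = 2.0e-06), or 3.25-fold, and its 3 probe sets gave 1.27 to 1.70.

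In complex IV 9 of 12 tested members rose, with a median of 0.86, and of the 9 subunits with no tissue-specific role 8 rose (median 1.13). Cox7b was at 8.26, 8.13, 9.22 and 8.28 with Ang II and at 10.09, 10.24 and 10.40 with Hyd/HCTZ. Its rise was 1.44 (SE 0.22, limma adjusted p = 1.0e-05). Cox6b1, the member of complex IV with the highest mean, was at 9.82, 9.99, 10.70 and 10.62 and then at 11.35, 11.56 and 11.64, a rise of 0.93 (SE 0.18). Cox5a rose by 1.33, Cox5b by 1.13 and Ndufa4, now counted as a subunit of complex IV, by 1.23. Cox4i1, which the name rule leaves out, had 8.89 ± 0.38 with Ang II and 10.48 ± 0.10 with Hyd/HCTZ, a difference of 1.27 (SE 0.21, limma adjusted p = 2.8e-05). The group means of its paralogue Cox4i2 lay between 4.20 and 4.48.

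Complex IV is built with alternative isoforms. Cox7a1 and Cox6a2, known from heart and muscle, did not pass the test, while the general isoforms Cox7a2, Cox6a1, Cox6b1 and Cox8a and the testis isoform Cox6b2 rose. Cox7a2, the isoform of most tissues, was at 5.89, 6.39, 7.08 and 6.61 with Ang II and at 7.92, 8.28 and 8.62 with Hyd/HCTZ, a rise of 1.43 (SE 0.19). Cox7a1, the isoform of heart and muscle, was at 4.95, 4.98, 4.43 and 4.54 and then at 4.46, 4.57 and 4.75, all below 5. Its difference was -0.46 (SE 0.20, limma adjusted p = 0.057). Cox6a1 was at 9.47, 9.66, 10.52 and 10.36 with Ang II and at 10.96, 11.12 and 11.28 with Hyd/HCTZ, and rose by 0.80 (SE 0.26, limma adjusted p = 0.0117).

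Cox6a2, the muscle isoform, was at 7.06, 6.59, 7.06 and 6.64 and then at 6.95, 7.85 and 7.97. These groups overlapped, and the difference was 0.53 (SE 0.28, limma adjusted p = 0.12). Cox6b2, known from testis, was at 4.55, 4.97, 4.79 and 5.11 with Ang II and at 5.50, 5.83 and 6.08 with Hyd/HCTZ, a rise of at least 0.47. Cox8a, at 7.86, 7.995, 8.23 and 8.59 and then at 8.95, 9.06 and 9.29, rose by 0.59 (SE 0.19, limma adjusted p = 0.0113). Cox6c had the lowest difference of the general subunits. It was at 9.58, 9.67, 10.45 and 10.18 with Ang II and at 10.34, 10.45 and 10.53 with Hyd/HCTZ, a difference of 0.16 (SE 0.27, limma adjusted p = 0.65), while its other probe set gave 1.37.

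In complex V 15 of 17 members rose, with a median of 1.08. Of the F1 part, alpha to epsilon, 4 of 5 rose (median 1.23), and of the rotating c ring 3 of 3 (1.20). In the peripheral stalk 4 of 4 rose (1.02), and of the other membrane subunits 4 of 5 (0.92). Atp5d, the delta subunit of the F1 part, was at 7.08, 7.44, 7.89 and 7.73 with Ang II and at 9.64, 9.75 and 9.92 with Hyd/HCTZ. The gap between the groups was wider than the range within either, and the rise was 1.91 (SE 0.22, limma adjusted p = 1.4e-07), or 3.75-fold. Atp5b, the catalytic beta subunit, rose by 1.23, and Atp5e, the epsilon subunit, by 1.36. Atp5md, a small membrane subunit, was at 7.06, 7.73, 9.21 and 7.67 and then at 9.76, 9.90 and 10.07, a rise of 1.66 (SE 0.39).

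The 3 genes of subunit c encode the same mature protein with different import sequences, and all rose. Atp5g1 was at 7.41, 7.35, 8.15 and 7.89 with Ang II and at 9.33, 9.48 and 9.60 with Hyd/HCTZ, a rise of 1.46 (SE 0.22). Atp5g2, at 8.33, 8.63, 9.29 and 9.28 and then 10.04, 10.46 and 10.54, rose by 1.20 (SE 0.23). Atp5g3, at 8.26, 8.23, 9.01 and 8.86 and then 9.43, 9.63 and 9.73, rose by 0.71 (SE 0.23). The differences between these 3 rises were not tested.

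The complex V members that did not pass were Atp5a1, the alpha subunit of the F1 part, and Atp5l, subunit g. Atp5a1 was at 8.62, 8.84, 8.91 and 9.18 with Ang II and at 9.30, 9.62 and 9.80 with Hyd/HCTZ, a difference of 0.35 (SE 0.25, limma adjusted p = 0.25) with no overlap as deposited. Atp5l, the member with the highest mean of the complex, was at 9.82, 9.78, 10.84 and 10.34 and then at 10.66, 10.75 and 11.06. Ang II replicate 3 reached into the Hyd/HCTZ range, and the difference was 0.29 (SE 0.26, limma adjusted p = 0.35), with 0.21 to 0.59 over its 6 probe sets.

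Of the assembly factors and related proteins 4 of 8 tested members rose, with a median of 0.63. Ndufaf7, a methyltransferase that modifies a core subunit of complex I, was at 4.86, 5.03, 5.43 and 5.38 with Ang II and at 6.50, 6.55 and 6.81 with Hyd/HCTZ, a rise of 1.09 (SE 0.17, limma adjusted p = 8.1e-06). Ndufaf5, also an assembly factor of complex I, was at 4.51, 4.98, 5.83 and 5.27 and then at 6.17, 6.49 and 6.73, a rise of 0.98 (SE 0.23). Cox7a2l, known as a factor that links complexes III and IV in supercomplexes, was at 9.01, 9.02, 8.76 and 8.94 with Ang II. It was at 9.90, 10.12 and 10.32 with Hyd/HCTZ, a rise of 0.86 (SE 0.13). Whether its protein does so in mice of this strain was not tested. The assembly factors Ndufaf2 and Ndufaf4 overlapped between the groups. Ndufaf2 was at 6.35, 6.54, 6.50 and 6.08 and then at 6.53, 6.66 and 6.72, a difference of -0.05 (SE 0.18), and Ndufaf4 at 5.31, 5.17, 6.38 and 6.16 and then at 5.85, 6.41 and 6.49, a difference of 0.22 (SE 0.29).

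**Figure D3:**
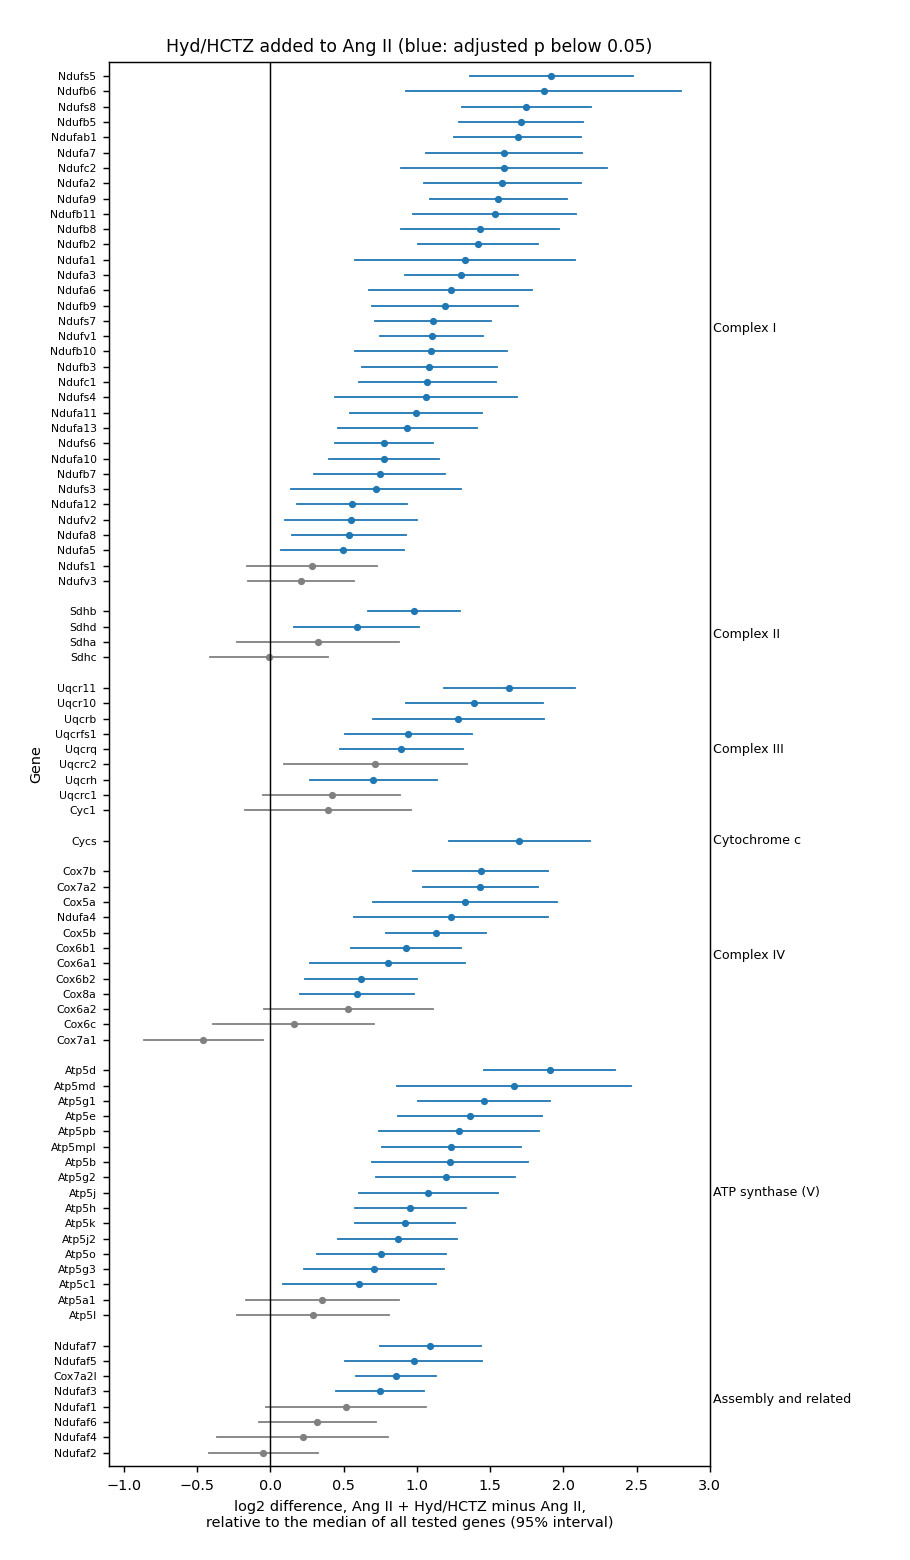
Difference between Ang II with Hyd/HCTZ and Ang II alone for each of the 85 tested members, as log2 relative to the median of all tested genes, with its 95% interval from limma, by complex. Blue points had a Benjamini-Hochberg adjusted p below 0.05 (69 genes, all higher) and grey points did not (16 genes).

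The members whose promoter held NRF1 letters had the lower median difference. Of 22 tested members with the letters 18 rose (median 0.79), and of 50 without them 46 rose (median 1.11). For the ETS letters the counts were 16 of 18 (median 0.92) and 48 of 54 (median 1.10). For the YY1 letters they were 7 of 7 (median 1.07) and 57 of 65 (median 0.99), so that here the members with the letters had the higher median. These differences were not tested.

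Several measures moved with Hyd/HCTZ beside the members. Dendritic cell markers were higher, with 10 of 13 up (median 0.94), among them Itgax at 9.59 against 8.17 and Xcr1 at 7.61 against 5.05. The 10 include Clec10a, at 5.21 against 3.19. Its mean with Ang II was below the level of 5, so its rise was at least -0.11, and no rise can be read. The average of these markers per array was 8.77 to 8.95 against 7.41 to 7.79 with Ang II alone. B cell markers were lower, with 7 of 8 down (5.85 to 6.97 against 7.80 to 8.79), as were 4 of 5 T cell markers (5.11 to 5.66 against 5.84 to 6.33). Neutrophil markers fell in 5 of 6 (5.66 to 7.53 against 6.88 to 9.08) and erythroid markers in 7 of 7 (3.98 to 4.61 against 5.15 to 6.61). Of the red pulp macrophage markers 5 of 9 rose (7.87 to 9.35 against 6.97 to 7.99), among them C1qa at 8.90 against 6.58. The interquartile range of all probe sets on an array was 3.09 to 3.44 with Hyd/HCTZ and 1.92 to 3.03 elsewhere. The part of these differences in the members' result was not tested, and in such samples fewer cells of a type and less RNA per cell cannot be told apart.

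After quantile normalization, which makes the distribution the same on all arrays, 64 of 85 members rose (22.9% of all genes), and among genes above 7 on 3 arrays, where the shift is 0.64, 50 of 75 rose (21.6%). Without a filter the shift is -0.15, and 80 of the 89 members rose (27.3%). Against 0 in place of the shift, 80 of 85 rose (40.8%).

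Other genes of mitochondrial energy supply and protein turnover were read from lists. Of the mitochondrial ribosomal proteins 50 of 76 rose and 1 fell (median 0.62), with Mrpl14 at 1.72 and Mrpl13 at 1.68. Of the citric acid cycle enzymes 6 of 12 rose and 0 fell (median 0.66), among them the malate dehydrogenase Mdh2 (1.35), the fumarase Fh1 (1.03), Suclg1 (0.97) and the citrate synthase Cs (0.91). Of the glycolytic enzymes 6 of 11 rose and 1 fell (median 0.58). Pgk1 rose by 1.17 and Pgam1 by 1.07, and the pyruvate kinase Pkm fell by 0.69.

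The proteasome subunits, a complex outside mitochondria, had 27 of 38 up and 0 down (median 0.90), with Psmb6 at 1.96 and Psmb3 at 1.83. Assembly factors outside the name pattern had 9 of 27 up and 2 down (median 0.23), with the complex IV factors Coa3 at 1.22 and Cox19 at 1.12. Regulators of mitochondrial transcription and biogenesis had 3 of 10 up and 1 down, at a median of 0.00. Tfam, which packages and transcribes mitochondrial DNA, rose by at least 0.36, Gabpb1 by at least 0.64 and Tfb2m by at least 0.52, while the nuclear receptor Esrra fell by 0.59. No probe set carried the symbol of a subunit encoded in mitochondrial DNA.

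**Figure D4:**
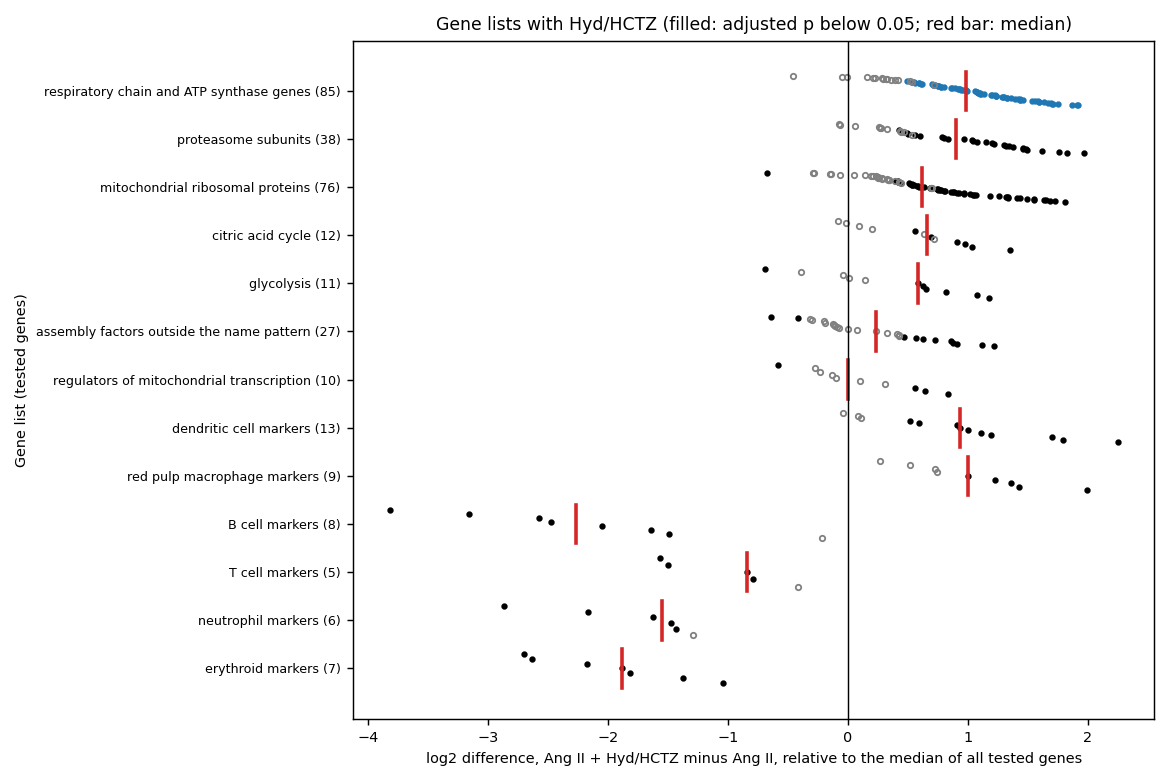
Difference with Hyd/HCTZ, as log2 relative to the median of all tested genes, for the members and for the other gene lists, with the number of tested genes in parentheses. Filled points had an adjusted p below 0.05 and the red bar is the median, which is 0.98 for the members, 0.90 for the proteasome and -2.27 for the B cell markers.

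Ang II against vehicle in wild type moved no member past the threshold. limma called 0 of 85 members and 0% of tested genes, and at an unadjusted p below 0.05 there were 0 members and 266 genes. The members' median difference was 0.02, with 49 of 85 above 0, beside -0.00 for all genes. It was -0.12 when the array labelled wild-type vehicle replicate 2 was left out, and also -0.12 without Ang II replicate 3, so it has no settled direction. The smallest p belonged to Ndufs5, whose vehicle arrays had 5.70, 7.03 and 7.27 as lowest, median and highest beside the Ang II levels given above, a difference of 0.51 (SE 0.26, limma adjusted p = 1.00). Ndufa11, an accessory subunit of complex I, had 0.39 (SE 0.21) and Atp5k, subunit e of the ATP synthase, 0.29 (SE 0.16), with overlapping arrays in all 3 genes. Of the cell type markers limma called 0. Erythroid markers were higher in 7 of 7 (median 0.70) and red pulp macrophage markers lower in 9 of 9 (-0.68). Neutrophil markers were higher in 5 of 6 (0.27), B cell markers in 6 of 8 (0.17) and dendritic cell markers in 7 of 13 (0.02). T cell markers were lower in 5 of 5 (-0.28). Their part in the members' result was not tested.

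The remaining comparisons share arrays with each other and with the comparisons above, and their values are given side by side. Adding 2-HOBA to Ang II also gave 0 of 85 members and 0% of genes with limma, with 4 members and 379 genes at an unadjusted p below 0.05. Of the members 73 of 85 had a difference above 0, at a median of 0.24 beside 0.05 for all genes, with 30 of 34 in complex I, 2 of 4 in complex II, 9 of 9 in complex III, 10 of 12 in complex IV, 16 of 17 in complex V and 5 of 8 assembly factors and related proteins. The lowest medians among these were 0.02 in complex II and 0.06 in the assembly factors. All 2-HOBA arrays were in set 2. Within set 2 the median was -0.07 with 27 of 85 above 0, and with the array set as a block it was -0.09 with 25 of 85 above 0. Set 2 held 2 arrays with Ang II alone, replicates 3 and 4, whose member averages were 7.81 and 7.45. The 2-HOBA arrays lay between them, at 7.48 to 7.59. Over all arrays but Ang II replicate 3 the median was 0.41 with 78 of 85 above 0. The direction is therefore not settled. Markers of other cell types also differed with 2-HOBA, although limma called 0 of them. Erythroid markers were lower in 7 of 7 (median -1.01; average per array 4.43 to 5.17 against 5.15 to 6.61 with Ang II alone), 6 of them with an unadjusted p below 0.05. Neutrophil markers were lower in 6 of 6 (median -0.80; 6.43 to 7.73 against 6.88 to 9.08), and red pulp macrophage markers in 8 of 9 (median -0.26; 6.44 to 7.84 against 6.97 to 7.99). B cell markers were higher in 8 of 8 (median 0.52; 8.59 to 9.17 against 7.80 to 8.79). Of the dendritic cell markers 9 of 13 were higher (median 0.08) and of the T cell markers 3 of 5 (median 0.10). Their part in the members' result was not tested.

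Ndufa3, an accessory subunit of complex I, was at 7.80, 7.96, 8.95 and 8.36 with Ang II and at 8.65, 9.02, 8.67 and 9.08 with 2-HOBA. The high array among the former was again replicate 3, and the difference was 0.59 (SE 0.21, limma adjusted p = 0.98). Ndufs8 was at 6.50, 6.90, 6.56 and 6.48 with 2-HOBA, a difference of 0.56 (SE 0.24). The assembly factor Ndufaf2 went the other way, at 5.94, 6.26, 5.61 and 5.92, a difference of -0.44 (SE 0.20). None of the 3 separated the groups.

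In the knockout, Ang II against vehicle gave 0 members and 0% of genes with limma, with 1 member and 296 genes at an unadjusted p below 0.05. The members' median was -0.19, with 11 of 85 above 0, beside -0.01 for all genes, and all 17 members of complex V had a difference below 0 (median -0.27). All 7 arrays were in set 1, and the median lay between -0.31 and -0.09 when 1 array was left out. The value of -0.09, with 31 of 85 above 0, came without Ang II replicate 2. That array was the lowest of the 7 for the average of complex V, at 7.81. The other Ang II arrays had 8.54, 8.64 and 8.87, and the mean with vehicle was 8.73. The complex V difference therefore leaned largely on 1 array. Cycs was at 7.71, 7.61 and 7.01 with vehicle and at 6.70, 6.68, 6.70 and 6.97 with Ang II. It was 1 of 2 members, with Sdhb, whose Ang II arrays all lay below the vehicle arrays, beside 2.58% of all genes. Its difference was -0.68 (SE 0.28, limma adjusted p = 1.00). Ndufab1 had -0.49 (SE 0.25) and Atp5o, the stalk subunit OSCP, -0.49 (SE 0.26), both with overlapping arrays. No cell type marker was called. Erythroid markers were higher in 7 of 7 (median 0.64), neutrophil markers in 5 of 6 (0.50) and red pulp macrophage markers in 6 of 9 (0.25). T cell markers were lower in 5 of 5 (-0.17), B cell markers in 7 of 8 (-0.31) and dendritic cell markers in 9 of 13 (-0.16).

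The knockout against wild type under vehicle gave 0 members with limma, beside 0% of genes higher and 0.00957% lower, with 4 members and 657 genes at an unadjusted p below 0.05. The median of the members was 0.10, and 57 of 85 were above 0. It was -0.02 when the array labelled wild-type vehicle replicate 2 was left out. Within array set 1 it was 0.43 with 81 of 85 above 0, and 0.28 with 73 of 85 above 0 when that array was also left out. With array weights 4 of 85 members were called lower, Atp5a1, Atp5g3, Cox5a and Cox8a, beside 11.9% of all genes, and the median was -0.09 for the members and -0.15 for all genes. Cycs had the smallest p, with 5.90, 6.92 and 7.53 as lowest, median and highest of the wild-type arrays and the 3 knockout levels given above. The groups overlapped, and the difference was 0.71 (SE 0.25, limma adjusted p = 0.64). Cox5b had 0.44 (SE 0.18) and Ndufaf2 0.43 (SE 0.20). Neutrophil markers were higher in 5 of 6 (median 0.73) and B cell markers in 5 of 8 (0.03), with 0 markers called. Red pulp macrophage markers were lower in 9 of 9 (-0.42) and T cell markers in 5 of 5 (-0.38). So were 5 of 7 erythroid markers (-0.38) and 7 of 13 dendritic cell markers (-0.03).

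The knockout against wild type under Ang II gave 0 members with limma, beside 0.00957% of genes higher and 0.0383% lower, with 5 members and 714 genes at an unadjusted p below 0.05. The median was -0.14 with 22 of 85 above 0, and 0.16 with 65 of 85 above 0 within array set 1, so that the direction turned. Cox6a2, the muscle isoform of complex IV, was at 7.61, 7.32, 8.17 and 7.63 in the knockout, above the wild-type levels of 7.06, 6.59, 7.06 and 6.64. This was the 1 member with all knockout arrays higher, beside 1.67% of all genes, with a difference of 0.84 (SE 0.31, limma adjusted p = 0.51). Ndufa12, an accessory subunit of complex I named after its values were seen, was the 1 member with all knockout arrays lower, beside 1.94% of all genes. It was at 5.88 to 6.46 in the knockout and 6.54 to 6.96 in wild type, a difference of -0.43 (SE 0.20, limma adjusted p = 0.68). Ndufb5, an accessory subunit of complex I, was at 6.16, 5.42, 5.78 and 5.78 in the knockout and at 6.42, 6.11, 6.75 and 6.35 in wild type, a difference of -0.62 (SE 0.23). Ndufb2 had 0.50 (SE 0.22), and both overlapped. Neutrophil markers were higher in 5 of 6 (median 0.72) and red pulp macrophage markers in 7 of 9 (0.23), with 0 markers called. B cell markers were lower in 7 of 8 (-0.37) and T cell markers in 4 of 5 (-0.66). So were 9 of 13 dendritic cell markers (-0.22) and 4 of 7 erythroid markers (-0.03).

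The interaction asks whether the difference with Ang II itself differed between knockout and wild type. limma called 0 members and 0% of genes, with 1 member and 257 genes at an unadjusted p below 0.05. The median was -0.20, with 19 of 85 above 0, and -0.10 when the array labelled wild-type vehicle replicate 2 was left out. Cycs had -0.98 (SE 0.36, limma adjusted p = 1.00), from a difference of 0.30 with Ang II in wild type and -0.68 in the knockout. Cox5b had -0.51 (SE 0.25) and Sdhb -0.47 (SE 0.24).

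**Figure D5:**
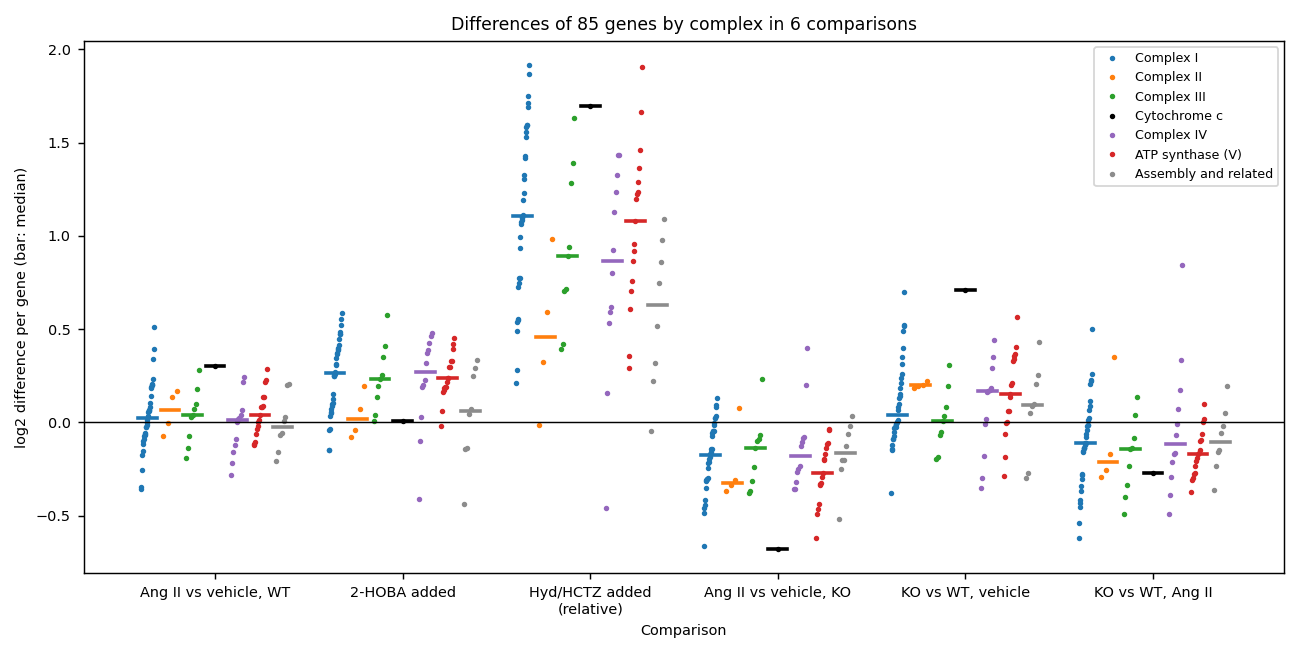
Differences of the 85 tested members, as log2, by complex in the 6 comparisons between pairs of groups. The bar is the median of the complex, values with Hyd/HCTZ are relative to the median of all tested genes, and of the 6 comparisons only that one has members past the adjusted threshold (69 of 85).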

How the data were processed

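The study measured total RNA of splenic dendritic cells on 28 Affymetrix Mouse Gene 1.0 ST arrays. The deposited table holds log2 values, which the authors made with RMA in Partek 6.6, per the submitters' processing notes; its 35556 probe sets span 0.90 to 14.34. Array number, not read depth, limits the precision. Groups came from the labels. Of the probe sets, 21789 had 1 symbol in the platform annotation, 1621 had several and 12146 none, and only the first were used. A gene with several was represented by that with the highest mean over all arrays. All 89 members matched RefSeq. Genes above 5 on 3 or more arrays were tested (10452 of 19938).

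limma 3.58.1 in R 4.3.3 fitted 6 group means to all 28 arrays, two-sided, with Benjamini-Hochberg adjustment over all tested genes. It was also run on simulated data with independent genes, the same spread in all groups and no array sets. That run therefore does not show how the fit handles genes that vary together, unequal spread or array sets. The Hyd/HCTZ comparison was tested against the median difference of all genes. The labels state no pairing by replicate number, so no block was used. Arrays of the same number had correlations of -0.35 to 0.37, with 3 or 4 pairs per comparison, too few to settle whether samples were paired. A fit with the replicate block is given below.

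Members and lists were chosen with earlier results of these data known. Described singly were, per complex, the member with the highest mean and those with the 2 highest and 2 lowest differences with Hyd/HCTZ (1 each for 4 or fewer members), the isoform families, the members that did not pass, in each other comparison the 3 smallest p, and up to 4 genes per list by p with Hyd/HCTZ; other genes were named for their role after their values were seen. Alternatives were no filter, a filter above 7, quantile normalization, the mean of probe sets, array weights, only the arrays compared, the other choice of shift, the replicate block, the array set as a block or alone, and each array left out. Chosen after seeing the data were the fits that also leave out the array labelled wild-type vehicle replicate 2.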

Additional observations from a re-analysis of the deposited data

Results flagged for a closer look

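In 22 of 255 groups of 4 to 10 arrays, for averages of complexes and for the genes described, the highest or lowest array was farther from its neighbour than Dixon's 95% value allows; chance alone gives about 1 in 20. The array labelled wild-type vehicle replicate 2 gave 8 of them, all as the lowest of its group: the average of complex II at 6.04, Cox6a2 at 5.67, Cox6c at 8.45, Ndufa11 at 6.83, Ndufaf4 at 4.14, Ndufaf7 at 4.73, Sdhc at 7.07 and Uqcrc1 at 5.54. Replicate 3 of the same group was lowest for Cox7a2l, at 8.47, and for Uqcr10, at 7.11.

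Among the Hyd/HCTZ arrays, replicate 5 was low for Atp5g2, at 10.04, and high for Cox8a, at 9.29, and Ndufaf7, at 6.81. Replicate 6 was high for Ndufv3, at 8.13. In the 2-HOBA group replicate 4 was apart for Ndufaf4, at 6.12, Ndufaf5, at 5.59, and Ndufv3, at 7.17, and replicate 2 was low for the average of complex IV, at 8.03. With Ang II alone, replicate 3 was high for Cox7b, at 9.22. In the knockout with Ang II, replicate 4 was high for Cycs, at 6.97, which is also the value of cytochrome c as a group, and replicate 2 was low for Uqcrh, at 8.82.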

How the results depend on the processing

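Of the counts and medians recomputed under the alternatives, 428 moved by less than the spread within groups (SD 0.27) or 1.5 times, and 13 by more. That SD is larger than the members' median in every comparison but Hyd/HCTZ, so a change of sign could be among the 428. Counts of 0 that stayed at 0 are also among them. For those comparisons the 428 do not measure how stable a result is. The members' median changed sign in 6 of 23 alternatives for Ang II in wild type, 2 of 19 for 2-HOBA, 2 of 21 for the knockout under vehicle and 4 of 19 under Ang II. With Hyd/HCTZ the members' median was 1.42 with no filter and 1.30 as deposited. It was lower after quantile normalization, at 0.87, and among genes above 7, at 0.75, where the shift of all genes was 0.64. When 1 array was left out, 62 to 71 members were called higher and 0 to 1 lower. The median was then 0.93 to 1.10, with 19.6% to 22.9% of all genes called higher. The 1 member called lower was Cox7a1; it was also called among only the arrays compared and with the spread taken from the other 27 arrays when the array labelled wild-type vehicle replicate 2 was dropped. Of the 69 called members, 61 were called in all 10 fits without 1 array. With 2-HOBA the median was -0.089 with the array set as a block and -0.068 within array set 2. For the knockout under vehicle it was 0.44 and, within array set 1, 0.43, with 4 members called lower with array weights; under Ang II it was 0.21 and 0.16. Leaving out 1 array gave medians of -0.12 to 0.15 for Ang II in wild type, 0.10 to 0.41 for 2-HOBA, -0.31 to -0.09 for Ang II in the knockout, -0.02 to 0.22 and -0.26 to 0.04 for the knockout under vehicle and Ang II, and -0.36 to -0.07 for the interaction, with 0 members called in these. Of the values of single genes, 791 stayed on their side of the threshold and 22 passed it only under an alternative. A change of sign in a gene that had not passed was counted as staying. No fit with the array set could be made for Hyd/HCTZ. The causes were not tested.

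With the replicate block, 65 members rose with Hyd/HCTZ (median 0.94 relative to a shift of all genes of 0.26), beside 20.7% of all genes, and the other medians were 0.20 for Ang II in wild type, 0.24 for 2-HOBA, -0.22 for Ang II in the knockout, 0.30 and -0.14 for the knockout under vehicle and Ang II, and -0.44 for the interaction. The block changed no other count of calls. On these arrays signal near 5 limits what can be read of Cox7a1, Cox6b2, Ndufb3 and Ndufaf6.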

Other observations

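Within groups, the members varied together over the 28 arrays. After each gene was centred on its group means, the median Pearson correlation over pairs of members was 0.57, beside 0.14 over pairs of all tested genes. It was 0.58 within complex I, 0.58 within complex II, 0.60 within complex III, 0.61 within complex IV and 0.69 within complex V, and 0.20 among the assembly factors and related proteins. When the array labelled wild-type vehicle replicate 2 was dropped, the median over all members was 0.54 and that over all genes 0.07, and complex II had 0.24. The arrays share array sets, which also moved the members' average, and pairs of genes are not independent.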
